A study of Mus musculus with 6 samples.

Results

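The set analysed comprised 10 genes, 5 of which encode ubiquitous subunits of TFIID (*Taf1*, *Taf4*, *Taf7*, *Taf9* and *Tbp*) and 5 of which encode paralogs of such subunits (*Taf4b*, *Taf7l*, *Taf9b*, *Tbpl1* and *Tbpl2*). They were found by symbol among the 19338 distinct gene symbols carried by the 20633 entries of the table of nuclear transcription, each entry being a RefSeq transcript. All 10 genes were present, each with 1 entry. The set was chosen by a measured value, since *Taf7l* was picked for its change after tamoxifen in the authors' comparison, and the other genes were added as its relatives. The columns of that comparison were not used here, so that no direction of change is given for any gene, and the results are levels over all libraries together.

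TFIID is the general transcription factor that recognises the core promoter and begins assembly of RNA polymerase II at the start site. It is built from the TATA-binding protein, TBP, and a set of TBP-associated factors, the TAFs, several of which pair through histone folds. Germ cells and some differentiated tissues use paralogs of these subunits: TAF4B in the ovary and testis, TAF7L in the testis, TBPL1 in maturing spermatids and TBPL2 in oocytes. TAF9B is a close relative of TAF9 that can join TFIID and the SAGA coactivator.

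The cells were mouse embryonic stem (ES) cells, RYBPfl/fl;YAF2-/-, a line expanded from 1 isolated colony in which *Yaf2* had been deleted with CRISPR/Cas9. In these cells loxP sites flank *Rybp*, and a tamoxifen-inducible Cre recombinase deletes it. Nuclear RNA was sequenced from 3 untreated libraries (UNT) and from 3 libraries of cells treated for 96 hr with 4-hydroxytamoxifen (OHT) at 800 nM, so that both groups lack *Yaf2* and the OHT group also loses *Rybp*. The study asked whether loss of RYBP, which stimulates histone H2A ubiquitylation by Polycomb repressive complex 1, alters transcription.

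The level of each entry is its base mean, the authors' average over all 6 libraries of read-pair counts normalised for library size. The values of single libraries were not analysed here, and therefore neither the spread between replicates nor the depth of a library is known, and neighbouring levels cannot be told apart by a test. A base mean above 0 was given for 19198 entries, with a median of 306.7 normalised counts, and 1435 entries were listed at 0. Percentiles of levels below are the percentage of the entries above 0 that had a lower value, with ties counted in part. Those of promoters are taken among all promoters in the same way. The targeted gene *Rybp* had a base mean of 13983 over UNT and OHT together, which does not show its loss, and *Yaf2* had a base mean of 3.24. Of 7 pluripotency markers in the table, 7 lay above the median of all entries, from 1565 normalised counts for *Utf1* to 10603 for *Esrrb*. By contrast, 0 of 4 trophoblast markers, 1 of 5 primitive endoderm markers, 1 of 5 fibroblast markers and 1 of 3 neural progenitor markers lay above it. These counts are by base mean. Per kilobase of transcribed span, 7 of 7 pluripotency markers lay above the median. So did 0 of 4 trophoblast, 0 of 5 primitive endoderm, 2 of 5 fibroblast and 1 of 3 neural progenitor markers. Germ-cell markers are given in the closing section.

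All 5 ubiquitous subunits were transcribed above the median of the table. *Taf1*, the largest subunit and a scaffold of the complex, had a base mean of 4028 normalised counts, at percentile 92.3. *Taf4*, whose product holds one lobe of TFIID together, had 2372 normalised counts at percentile 85.5. The base mean of *Taf7*, whose product binds TAF1, was 1770.5 normalised counts at percentile 81.1. *Tbp*, which contacts the TATA box directly, had 1208 normalised counts at percentile 74.2. *Taf9*, a histone-fold subunit, had 835 normalised counts at percentile 67.4, which is the level of a locus shared with the gene *Ak6*, as described below. The ubiquitous subunits thus spanned percentiles 67.4 to 92.3, with a median base mean of 1770.5 normalised counts against 306.7 for all entries above 0.

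The paralogs did not share a common level. *Taf4b* had a base mean of 3539 normalised counts, at percentile 91.0. *Tbpl1* had 1499 normalised counts at percentile 78.1. In contrast, *Taf7l* had 194.4 normalised counts at percentile 43.6, and *Taf9b* had 65.4 at percentile 32.6, so that both of these pooled values lay below the median of the table. As *Taf7l* was picked for a difference between OHT and UNT, its base mean is a mixture of both groups, and its place in either group is not known from this value. *Tbpl2* was listed at 0, which means that no read pair was counted on it in any of the 6 libraries. Therefore 9 of the 10 genes were detected, and 2 of the 5 paralogs lay above the median of all entries. *Taf4b* and *Tbpl1*, although known for their roles in germ cells, were thus well represented by base mean in the nuclear RNA of these ES cells. Per kilobase of transcribed span they stood lower, at percentiles 64.1 and 76.0.

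**Figure D1:**
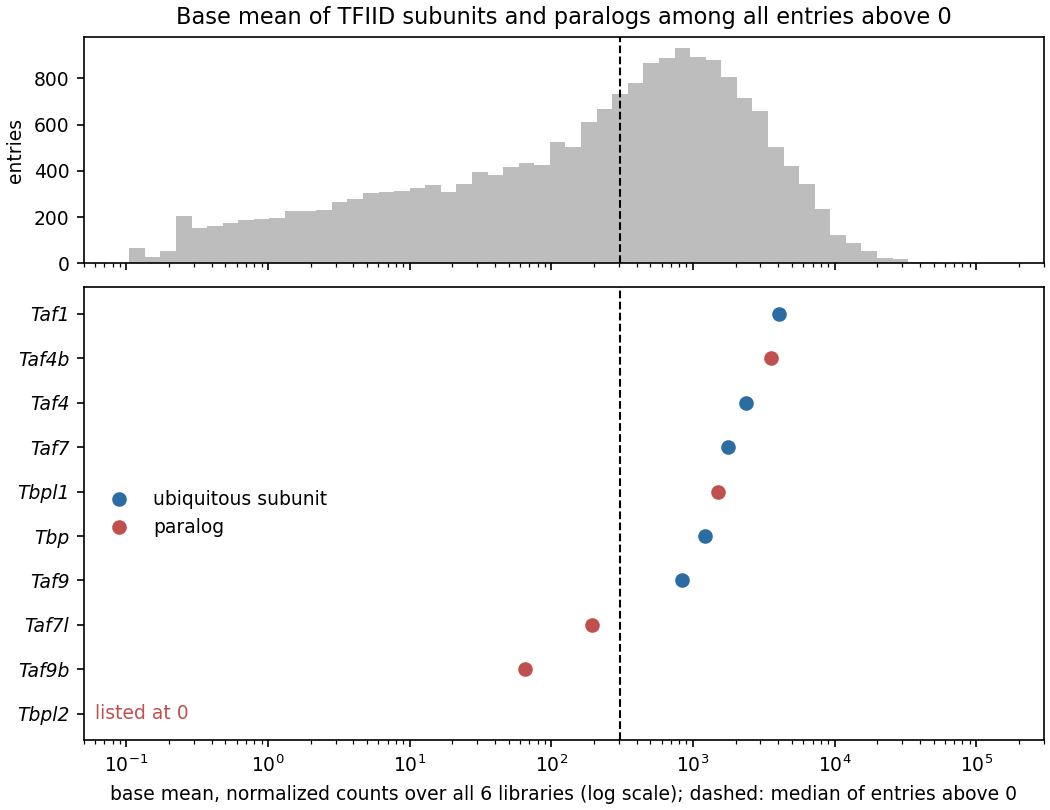
Base mean of each of the 10 genes in normalised counts on a log axis (lower panel; blue, ubiquitous subunits; red, paralogs) below the distribution of all 19198 entries with a base mean above 0 (upper panel, number of entries per bin), with the median of 306.7 dashed. The 5 ubiquitous subunits, *Taf4b* and *Tbpl1* lie to the right of the median. *Taf7l* and *Taf9b* lie to its left, and *Tbpl2* is listed at 0. Each point is 1 mean over 6 libraries, without an error. The *Taf9* point is the level of a locus shared with *Ak6*.

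A base mean grows with the length of a gene, so that genes were compared with one another per kilobase. In nuclear RNA introns contribute reads, and the span from the start to the end of the transcript was taken as the length. Over 18266 spliced entries the base mean had a Spearman rank correlation of 0.347 with the span and 0.375 with the exonic length. These values do not favour the span over the exonic length. The spans differed widely within the set. On mm10, *Taf4b* extends over 117115 bp on the plus strand of chromosome 18 (14783245 to 14900359), and its 15 exons make up 4.4% of it. *Taf7* extends over only 3714 bp on the minus strand of chromosome 18 (37640491 to 37644204), with 2 exons that make up 88.9% of it. *Taf7l* lies on the minus strand of chromosome X from 134460118 to 134476490, a span of 16373 bp with 13 exons that make up 11.8% of it. On chromosome X are also *Taf1* (101532759 to 101599734, plus strand, 39 exons) and *Taf9b* (106206883 to 106219901, minus strand, 7 exons), and these make 3 of the 10 genes, against 3.52% of all entries with a position. *Taf9* spans 4717 bp of chromosome 13 (100651343 to 100656059, plus strand) and *Taf4* 64495 bp of chromosome 2 (179912152 to 179976646, minus strand). *Tbp* lies on chromosome 17 (15499888 to 15517427, plus strand), *Tbpl1* on chromosome 10 (22703879 to 22731447, minus strand) and *Tbpl2* on chromosome 2 (24071721 to 24096595, minus strand).

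Per kilobase of span the order of the detected genes, over UNT and OHT together, was *Taf7*, *Taf9*, *Tbp*, *Taf1*, *Tbpl1*, *Taf4*, *Taf4b*, *Taf7l* and *Taf9b*. The level of *Taf1* was 60.1 normalised counts per kilobase, at percentile 78.1, and *Taf4b* and *Taf4* stood at percentiles 64.1 and 68.1. Without values per library, no step in this order can be set against a spread.

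*Taf7* and its paralog *Taf7l* were far apart on every scale in the pooled libraries. Because *Taf7l* was picked for its change and *Taf7* was not, the ratios below mix UNT and OHT and describe neither group. Per kilobase of span the level of *Taf7* was 476.7 normalised counts, at percentile 98.2 of all entries above 0. That of *Taf7l* was 11.9, at percentile 47.6, just under the median of 13.8. The ratio of *Taf7* to *Taf7l* was 40.1 per kilobase of span and 9.11 before any correction for length. With the exonic length in place of the span, the levels were 536 for *Taf7* and 100.6 for *Taf7l*, a ratio of 5.33. The size of the gap between this pair therefore depends on the length used, while *Taf7* was the higher on each of the 3 scales.

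*Taf9* and *Taf9b* differed in the same direction. The level per kilobase of span was 177.1 normalised counts for *Taf9* and 5.03 for *Taf9b*, at percentiles 93.7 and 36.8. This is a ratio of 35.2, against 12.8 without a correction for length and 27.5 per kilobase of exons. *Taf9b* was thus the lowest of the 9 detected genes by base mean, per kilobase of span and per kilobase of exons. The *Taf9* side of these ratios is the level of a locus shared with *Ak6*, as described below. The ratios are therefore uncertain for *Taf9* alone.

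For the other pairs the order of subunit and paralog depended on the scale. Per kilobase of span *Taf4* had 36.8 normalised counts and *Taf4b* 30.2, a ratio of 1.22. Per kilobase of exons the order turned, with 537 for *Taf4* and 687 for *Taf4b*, a ratio of 0.781, and the ratio of their base means was 0.670. *Tbp* had 68.9 normalised counts per kilobase of span and *Tbpl1* 54.4, a ratio of 1.27, and the ratio per kilobase of exons was 1.26. Without a correction for length the ratio of *Tbp* to *Tbpl1* was 0.806. The ratio depended on the annotation too: with the span of the whole RefSeq gene it was 1.84 for *Taf4* over *Taf4b*, and with the longer GENCODE transcript of *Tbp* it was 0.780 for *Tbp* over *Tbpl1*. The levels of *Taf4b* and *Tbpl1* therefore lay near those of their ubiquitous relatives, and the values give no order within either pair. No ratio was formed for *Tbp* and *Tbpl2*, since *Tbpl2* was listed at 0.

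**Figure D2:**
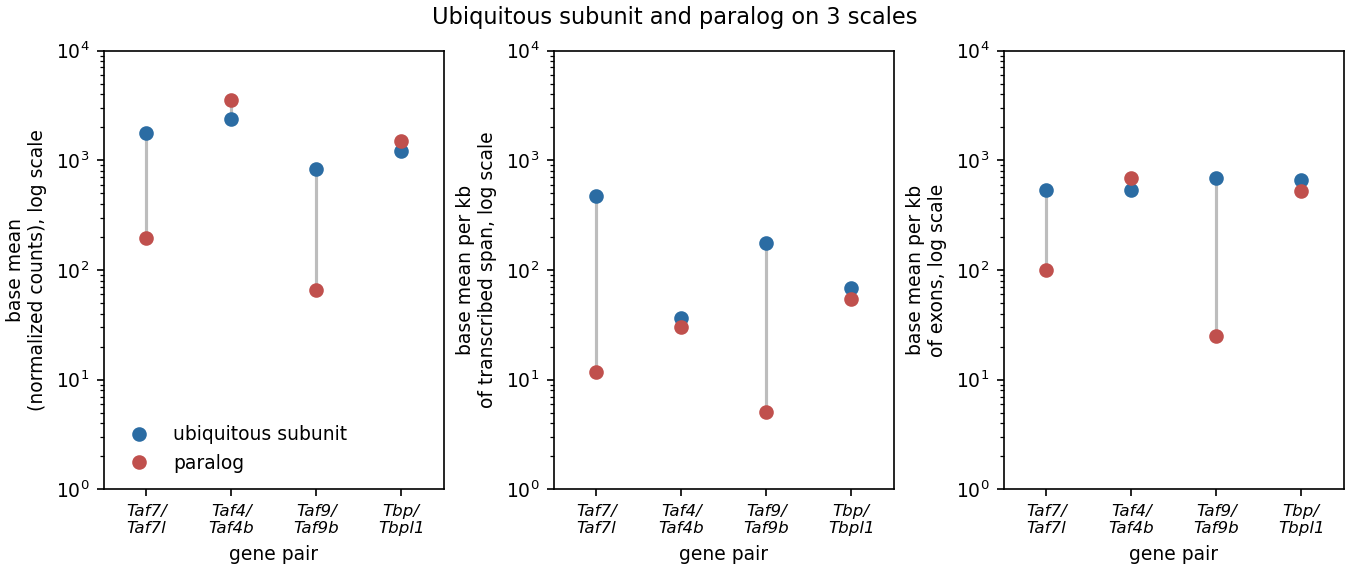
Levels of the 4 detected pairs of ubiquitous subunit (blue) and paralog (red), joined by a line, as base mean in normalised counts (left), base mean per kilobase of transcribed span (middle) and base mean per kilobase of exons (right), all on log axes. The pairs *Taf7* and *Taf7l*, and *Taf9* and *Taf9b*, are wide apart in every panel (ratios of 5.33 to 40.1), whereas *Taf4* and *Taf4b*, and *Tbp* and *Tbpl1*, lie close together and change order between panels. The *Taf9* points are levels of a locus shared with *Ak6*.

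Whether reads could be shared between these genes was examined in the annotated transcripts with stretches of 40 bases, the length of a read. None of the 5 pairs of subunit and paralog shared such a stretch, and the longest run of identical bases within a pair was 12 to 20 bases long. For *Taf9* and *Taf9b* this cannot be read as a result on *Taf9*, because the transcript taken for *Taf9* is annotated as *Ak6*. Introns were not compared. For *Taf1*, *Taf4b*, *Taf7*, *Taf7l*, *Taf9b*, *Tbp* and *Tbpl2*, 0 stretches occurred in the transcripts of any other gene. Shared stretches were found for *Taf4* (24 of 4377, with *4921531C22Rik*) and for *Tbpl1* (368 of 2834, with *Slc2a12*). The GENCODE transcript linked to the entry of *Taf9* is annotated as *Ak6*, a gene for an adenylate kinase on the same strand. *Ak6* has no entry of its own in the table under that symbol. All 1183 stretches of this transcript matched *Ak6* by construction, since the transcript met itself in the search. Its overlap with *Ak6* over 100% of the span follows in the same way. Of the 1183 stretches of this transcript, 480 also occur in *Gm12372* on chromosome 4, 315 in *AC133523.1* on chromosome 19 and 229 in *Gm14335* on chromosome 6. The transcript annotated as *Ak6* lies within the RefSeq gene of *Taf9*, which is 4718 bp long. The level of *Taf9* is therefore that of a locus shared with *Ak6*, and is uncertain as a level of *Taf9* alone.

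Overlaps with genes on the other strand were small apart from *Taf7*. *Taf7* lies wholly within 3 annotated genes of the opposite strand (*Gm42416*, *Gm37013* and *Gm37388*), which have no entry under these symbols. *Tbpl1* shares 407 bp at its 3′ end with *Slc2a12*, which had a base mean of 77.7 normalised counts, and 13.0% of its 2834 stretches are found in *Slc2a12* transcripts. *Taf4* overlaps *4921531C22Rik*, at 45.0 normalised counts, over 654 bp or 1.01% of its span. The libraries keep the strand of the RNA, but whether the count used it is not given in the sources used here, and the part of these overlaps in the levels was not tested.

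The remaining TFIID subunits were transcribed at moderate levels. Of 9 such genes, 7 had an entry, from 302 normalised counts for *Taf13* to 2918 for *Taf2*, with a median of 633. By base mean 6 of these 7 lay above the median of all entries, and per kilobase of span 7 of 7 did, between 23.5 and 73.5 normalised counts. *Taf13* and *Taf11* were the lowest by base mean with 302 and 438 normalised counts. Per kilobase of span they had 29.1 and 66.4, and neither was the lowest. *Taf7* and *Taf9*, with 476.7 and 177.1 normalised counts per kilobase of span, lay above the whole range of these 7 genes, and *Taf7l* and *Taf9b*, with 11.9 and 5.03, below it. *Taf4*, *Taf4b*, *Taf1*, *Tbp* and *Tbpl1* fell within it. This placement depended on the scale. Per kilobase of exons the 7 genes ran from 229 to 580 normalised counts, and *Taf7* (536), *Taf4* (537) and *Tbpl1* (522) fell within that range. *Taf1* (677), *Tbp* (656), *Taf9* (684) and *Taf4b* (687) lay above it, and *Taf7l* (100.6) and *Taf9b* (24.8) again lay below it. The SAGA paralogs *Taf5l* and *Taf6l* had base means of 2641 and 497. Their ratios to their TFIID relatives, taken as TFIID subunit over SAGA paralog per kilobase of span, were 0.451 for *Taf5* over *Taf5l* and 1.75 for *Taf6* over *Taf6l*.

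TFIIA, which stabilises TBP on DNA, has a germ-cell paralog of its own. *Gtf2a1* and *Gtf2a2*, the ubiquitous genes, had base means of 4009 and 1406 normalised counts. The paralog *Gtf2a1l* had 59.4 normalised counts at percentile 31.7. The ratio of *Gtf2a1* to *Gtf2a1l* was 90.4 per kilobase of span and 18.1 per kilobase of exons. All 15 further general factors of RNA polymerase II lay above the median of the table, by base mean and per kilobase of span. By base mean they ran from *Gtf2h4* (592 normalised counts) and *Gtf2b* (699) to *Mnat1* (4063) and *Gtf2f2* (4576). This order follows length in part. Per kilobase of span *Mnat1* was the lowest of the 15 with 27.0, and *Gtf2f2* with 40.2 lay below *Gtf2h4* with 98.6. The regulators of TBP likewise lay above the median of the table. *Btaf1*, the ATPase that removes TBP from DNA, had a base mean of 6582 normalised counts. *Dr1* and *Drap1*, which form the repressor NC2, had 979 and 450.

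**Figure D3:**
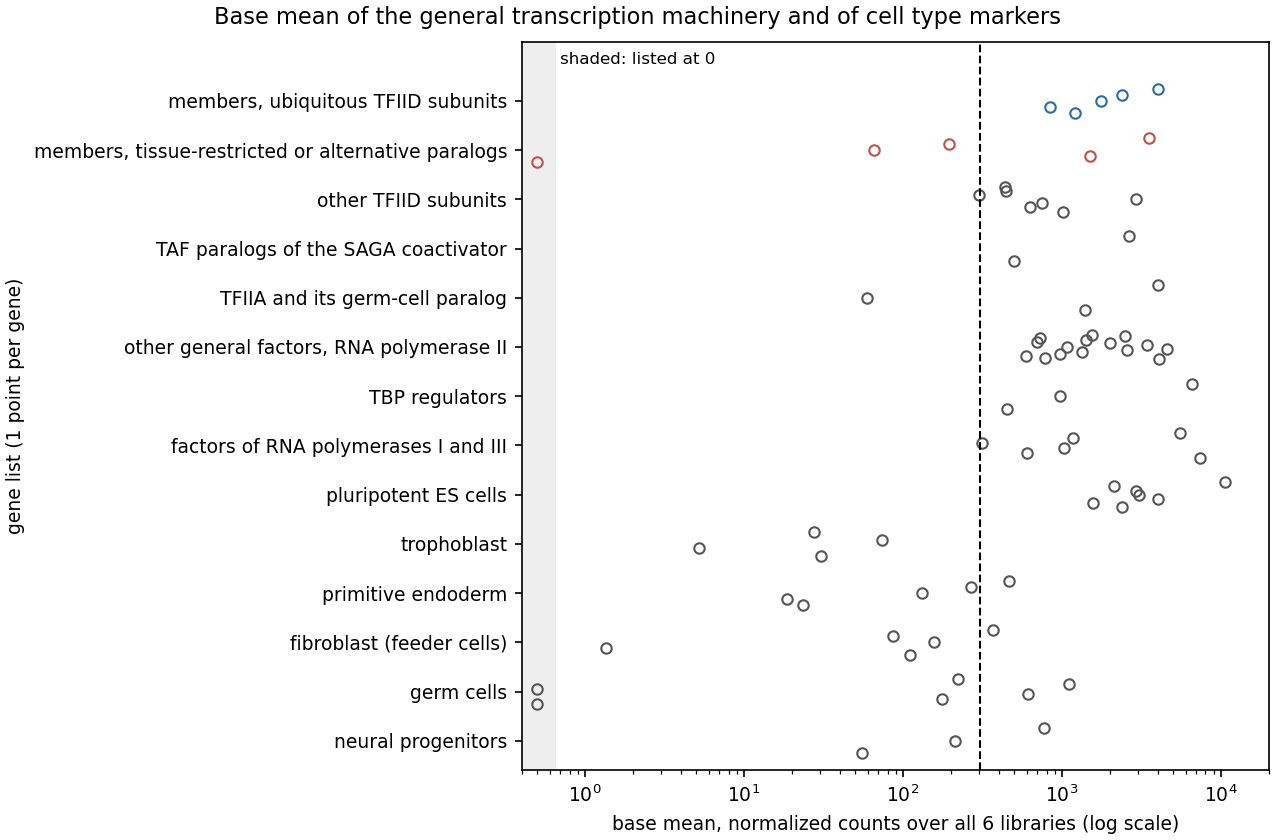
Base mean in normalised counts on a log axis for each gene (1 point per gene) of the 10 genes of the set, the rest of the general transcription machinery and markers of ES cells and other cell types, with the median of entries above 0 dashed and genes listed at 0 in the shaded strip. Ubiquitous TFIID subunits (blue) lie between 835 and 4028, paralogs (red) extend from 0 to 3539, and 15 of 15 other general factors lie right of the median. The value of 835 is that of *Taf9*, whose locus is shared with *Ak6*.

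Promoter sequence was not used directly to choose these genes, but whether it is independent of that choice was not tested. The RefSeq table of GRCm38.p6 holds 32851 promoters, each running from 250 bases before to 50 bases after a start. In it 8 of the 10 genes matched with 10 promoters, and *Taf7* and *Taf4b* had none. The ratio of observed to expected CpG, which is high in CpG islands, had a median of 0.384 over all promoters. The promoter of *Taf7l* had a ratio of 1.03, at percentile 95.5, the highest among the promoters nearest to the 8 starts, although its GC content of 47.0% was the lowest. *Taf4* followed with 1.01, *Taf9* with 0.960, *Taf1* with 0.818, *Tbp* with 0.803, *Tbpl1* with 0.746 and *Taf9b* with 0.678. A second promoter of *Taf9*, 264 bases from the start of its entry, had 1.15 at percentile 99.1, above *Taf7l*. The second promoter of *Taf9b* had 0.876. *Tbpl2*, the gene listed at 0, had 0.213, at percentile 30.6, and was the only one of the 8 below the median of all promoters. For comparison, genes with a ratio under 0.4 had a median base mean of 6.30 normalised counts and 18.8% of them were listed at 0, against 767 normalised counts and 0.337% among genes with a ratio of at least 0.6, where the lowest ratio of a gene's promoters was used. Of the set, *Taf1*, *Taf4*, *Taf9*, *Tbp* and *Tbpl1* were in the upper class with base means above its median. *Taf7l* and *Taf9b* were in it too, but with base means of 194.4 and 65.4 they lay below that median. A link between promoter CpG and the level of these genes was not tested.

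Each promoter was searched on both strands for the TATA box in the form TATAAA, for the E-box CACGTG, which MAX and its partners bind, and for the E2F motif GCGGGAAA. These occur in 13.6%, 7.15% and 1.07% of all promoters, respectively. *Taf7l* holds CACGTG 49 bases before its start, and TATAAA 148 bases before it, where an overlapping match of the other strand begins 150 bases before the start. *Taf9b* holds CACGTG 90 bases before the start of its longer transcript, which lies 1257 bases from the start of the entry in the table. The other 8 promoters held none of these letters. A match describes the sequence alone and is not a site of binding.

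The promoters with a match are shown with that of *Tbpl2*, for the CpG-poor gene listed at 0, and that of *Tbp*, its expressed relative. They read 5′ to 3′ in the sense of the gene on GRCm38.p6, and capitals mark the letters searched for. The windows are chrX:134476441-134476740 on the minus strand for *Taf7l*, chrX:106221109-106221408 on the minus strand for *Taf9b*, chr2:24096546-24096845 on the minus strand for *Tbpl2* and chr17:15499638-15499937 on the plus strand for *Tbp*.
Taf7l: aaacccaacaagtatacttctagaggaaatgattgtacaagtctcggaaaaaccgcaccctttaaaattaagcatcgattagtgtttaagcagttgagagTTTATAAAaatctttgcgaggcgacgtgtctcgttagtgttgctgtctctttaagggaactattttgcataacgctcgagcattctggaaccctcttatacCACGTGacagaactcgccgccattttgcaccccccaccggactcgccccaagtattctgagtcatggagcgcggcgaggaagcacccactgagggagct
Taf9b: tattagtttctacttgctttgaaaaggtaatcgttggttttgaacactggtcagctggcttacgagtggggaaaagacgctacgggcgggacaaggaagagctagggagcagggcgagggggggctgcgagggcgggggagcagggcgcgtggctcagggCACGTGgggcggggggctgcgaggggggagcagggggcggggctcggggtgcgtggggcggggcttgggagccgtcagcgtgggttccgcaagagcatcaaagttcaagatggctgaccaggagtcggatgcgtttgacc
Tbpl2: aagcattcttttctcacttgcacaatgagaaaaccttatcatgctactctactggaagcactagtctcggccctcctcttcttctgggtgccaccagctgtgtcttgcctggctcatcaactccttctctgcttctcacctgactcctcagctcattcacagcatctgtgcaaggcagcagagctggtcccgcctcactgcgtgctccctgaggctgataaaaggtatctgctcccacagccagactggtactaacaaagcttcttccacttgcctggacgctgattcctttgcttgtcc
Tbp: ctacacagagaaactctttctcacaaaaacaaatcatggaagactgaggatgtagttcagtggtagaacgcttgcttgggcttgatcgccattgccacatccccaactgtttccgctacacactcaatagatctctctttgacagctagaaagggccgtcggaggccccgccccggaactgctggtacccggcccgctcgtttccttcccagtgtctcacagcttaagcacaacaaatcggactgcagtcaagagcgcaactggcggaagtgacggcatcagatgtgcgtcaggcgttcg

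**Figure D4:**
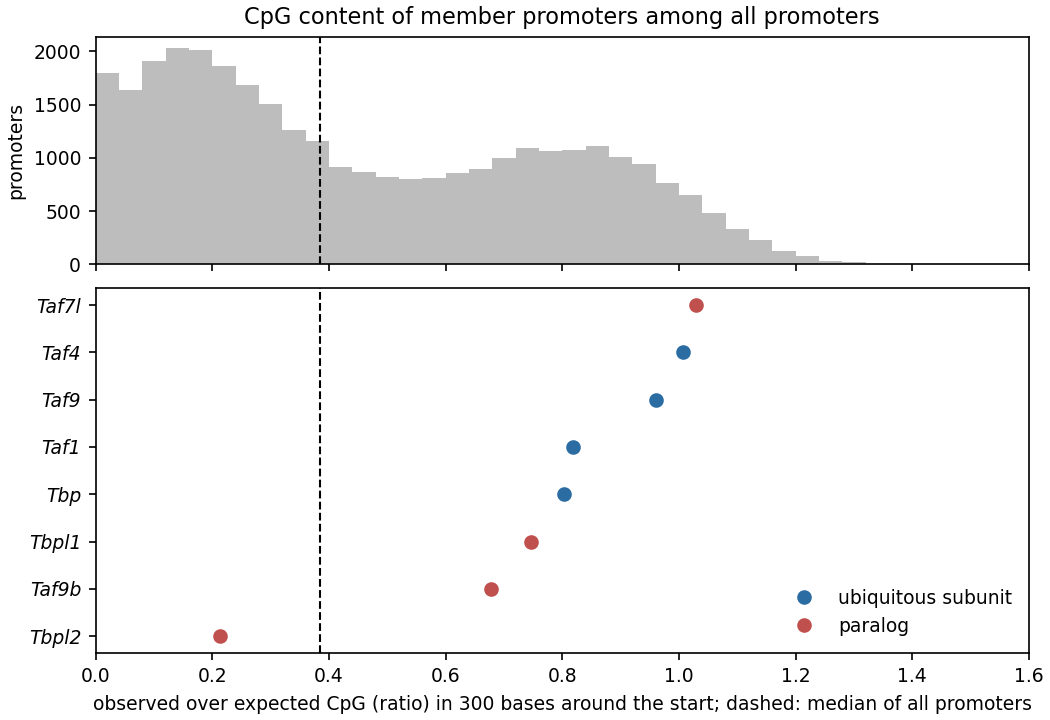
Ratio of observed to expected CpG in the 300 bases around the start of 8 of the genes (lower panel; blue, ubiquitous subunits; red, paralogs; the promoter nearest to the start of the entry) below its distribution over all 32851 promoters (upper panel), with the median of 0.384 dashed. *Tbpl2* lies left of the median at 0.213 and the other 7 lie right of it, from 0.678 for *Taf9b* to 1.03 for *Taf7l*.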

How the data were processed

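The 3 UNT and 3 OHT libraries of nuclear RNA were sequenced as 40-base paired reads. The labels number them as replicates, and the paper's methods describe biological triplicates. The authors discarded rRNA reads with bowtie2 and mapped the others to mm10, first by STAR and, for those left unmapped, by bowtie2. A script of theirs gave read-pair counts over non-redundant RefSeq genes, which entered DESeq2 (tool versions are not given in the sources used here). The value used, the base mean, is a signal that the authors deposited: counts divided by size factors and averaged over all 6 libraries. The other 6 value columns hold the authors' own comparison (fold change, standard error, statistic, p-values and a threshold flag) and were not used. The planned count test of OHT against UNT needs counts per library and was not run.

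The members and lists were chosen with earlier results of these data known. Symbols came from the RefSeq gene table of GRCm38.p6 (20446 entries) and GENCODE vM21 (20560 in all). Spans and exons are those of the GENCODE vM21 transcript linked to the entry, trimmed to the bounds of its RefSeq gene, or the RefSeq gene where none was linked. Spans were found for 99.6% of entries and exonic lengths for 98.2%. Every member is named, and genes of the other lists are given in ranges with at most the 2 highest and 2 lowest, except short lists and markers. Further genes named for an overlap or shared sequence were chosen after their values were seen. Shared stretches were sought in 141767 transcripts on both strands. Protein sequences were not compared here. Python 3.11.15, numpy 2.4.6, pandas 2.3.3 and matplotlib 3.10.9 were used, and the functions were tested on simulated data.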

Additional observations from a re-analysis of the deposited data

How the results depend on the processing

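No paired analysis was possible because the values of single libraries were not analysed here, and for the same reason the tests on counts, their normalisation and filter, and leaving out each replicate were not run. Protein identity of the pairs was not computed. Without replicates, a percentile was counted as moved beyond 10 points and a ratio beyond 1.5 times. Of 84 values recomputed with a changed input, 65 did not move by this measure, 15 moved and 4 turned the order of a pair. A further 16 could not move by construction, since each gene has 1 entry to sum and among these genes only the model of *Tbp* was trimmed.

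When entries with base means under 10 were left out, *Taf7l* fell to percentile 30.8 and *Taf9b* to 17.2. Per kilobase of span in place of base mean, the percentiles were 98.2 for *Taf7*, 64.1 for *Taf4b*, 68.1 for *Taf4*, 93.7 for *Taf9* and 78.1 for *Taf1*. Per kilobase of exons in place of span they were 78.3 for *Taf7*, 83.0 for *Taf4b*, 78.4 for *Taf4* and 82.9 for *Taf9*.

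The ratio of *Taf7* to *Taf7l* was 5.33 per kilobase of exons and 9.11 without a length. That of *Taf9* to *Taf9b* was 12.8 without a length. That of *Taf4* to *Taf4b* turned to 0.781 per kilobase of exons and 0.670 without a length, and was 1.84 with the span of the whole RefSeq gene. That of *Tbp* to *Tbpl1* turned to 0.806 without a length and to 0.780 with the GENCODE transcript as annotated, which runs past the RefSeq gene of *Tbp*. Both alternatives with other gene models were chosen after seeing the data. The cause was not tested beyond the length itself, which by construction sets these differences.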

Other observations

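Genes used in germ cells were present at uneven levels. *Ddx4*, a germ granule helicase, had a base mean of 1105 normalised counts at percentile 72.5, and *Stra8*, which acts at the entry into meiosis, had 614 at percentile 61.6. *Dazl* and *Sycp3* lay below the median of all entries by base mean, with 220.4 and 176.2 normalised counts. Per kilobase of span *Dazl* had 15.5, above the median of 13.8, and *Sycp3* had 12.9, below it. *Tnp1* and *Prm1*, which package the DNA of spermatids, were listed at 0, as was *Tbpl2*. Of these 6 genes 2 lay above the median of the table by base mean, and 3 did per kilobase of span. All these values pool UNT and OHT and describe neither group.

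The factors that serve RNA polymerases I and III, some of them partners of TBP outside TFIID, were all above the median where they had an entry, in 6 of 6 cases. By base mean, without a correction for length, they ranged from 312 normalised counts for *Brf2* and 602 for *Taf1c* to 5559 for *Bdp1* and 7399 for *Taf1d*. Per kilobase of span *Taf1d* had 1256 normalised counts, above *Taf7* with 476.7, and the part of other transcripts from the *Taf1d* locus in this value was not tested.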
